A study of Rattus norvegicus with 21 samples.

Results

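A set of 10 leukocyte-recruiting genes were followed in rat insulinoma cells: 3 adhesion molecules (Icam1, Madcam1, Vcam1) and 7 chemokines (Cxcl1, Cxcl10, Cxcl11, Cxcl16, Ccl2, Ccl20, Cx3cl1). They were taken from the mRNA table by gene symbol, and each of the 10 had 1 row among 32750. They were chosen by name with results in view: Icam1, Cxcl10 and Madcam1 were selected on their normalized counts, as some of the largest falls in the libraries labelled iAs. Values of the 10 genes in that comparison are therefore a description and carry no p-value.

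The cells were INS-1 832/13, an insulin-secreting line derived from a rat beta cell tumour. The mRNA libraries comprised 4 labelled untreated and 5 labelled as exposed to 1 µM inorganic arsenic (iAs) for 24 h. Cells of all groups had been seeded 24 h before exposure. Small RNA was sequenced in 12 other libraries, 3 each of untreated cells and of cells given 1 µM iAs, 5 µM cadmium (Cd) or 25 µM manganese (Mn) for 24 h. Whether replicate libraries came from separate cultures is not given, so every p-value below reflects only how much these libraries vary, which may be technical.

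Adhesion molecules of the immunoglobulin family sit on the cell surface and are bound by integrins of leukocytes. Chemokines are secreted or membrane-tethered proteins that attract leukocytes through G protein-coupled receptors, and their class names (CXC, CC, CX3C) describe the spacing of their first cysteines. Many of these genes are switched on by tumour necrosis factor, interleukin-1 or interferons through NF-kB and interferon-activated transcription factors. Beta cells exposed to such cytokines are known to make CXCL10 and ICAM1, and T cells are drawn to islets through the CXCL10 receptor CXCR3.

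The stretches just before the transcription start are shown for the 5 genes with the largest differences and for Vcam1, which was listed at 0, because NF-kB is a known regulator of all 6. They are the 250 bases before the start in RefSeq's GRCr8 assembly, 5′ to 3′ in the direction of the gene. Capitals mark matches, on either strand, to the NF-kB consensus motif or to GGAANTTCC, which overlaps it.
Icam1 (chr8:27829595-27829844, plus strand): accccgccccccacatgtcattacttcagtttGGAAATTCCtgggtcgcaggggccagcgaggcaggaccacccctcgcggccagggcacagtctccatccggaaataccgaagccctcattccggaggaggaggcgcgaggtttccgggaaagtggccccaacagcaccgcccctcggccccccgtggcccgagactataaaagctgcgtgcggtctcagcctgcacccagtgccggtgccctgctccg
Madcam1 (chr7:10690323-10690572, minus strand): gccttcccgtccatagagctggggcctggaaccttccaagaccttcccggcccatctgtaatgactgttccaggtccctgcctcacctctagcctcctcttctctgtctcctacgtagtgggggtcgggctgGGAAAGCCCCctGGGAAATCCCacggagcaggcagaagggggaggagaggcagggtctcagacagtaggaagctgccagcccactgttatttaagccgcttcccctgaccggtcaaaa
Vcam1 (chr2:206742784-206743033, minus strand): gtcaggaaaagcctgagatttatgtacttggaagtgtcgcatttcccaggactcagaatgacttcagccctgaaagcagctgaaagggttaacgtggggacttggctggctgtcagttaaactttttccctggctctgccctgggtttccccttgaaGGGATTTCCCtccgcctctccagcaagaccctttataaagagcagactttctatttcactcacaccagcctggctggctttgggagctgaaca
Cxcl10 (chr14:15988816-15989065, plus strand): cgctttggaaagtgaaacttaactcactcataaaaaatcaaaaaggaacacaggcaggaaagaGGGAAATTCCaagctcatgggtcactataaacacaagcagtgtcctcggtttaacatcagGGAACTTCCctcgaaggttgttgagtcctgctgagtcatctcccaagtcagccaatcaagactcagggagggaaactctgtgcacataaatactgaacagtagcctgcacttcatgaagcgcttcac
Cxcl11 (chr14:15973478-15973727, plus strand): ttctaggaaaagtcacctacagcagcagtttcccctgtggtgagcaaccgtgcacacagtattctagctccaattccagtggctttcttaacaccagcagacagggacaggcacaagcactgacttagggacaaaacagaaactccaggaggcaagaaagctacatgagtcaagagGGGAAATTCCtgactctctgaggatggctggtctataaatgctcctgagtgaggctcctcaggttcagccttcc
Cxcl1 (chr14:17479322-17479571, minus strand): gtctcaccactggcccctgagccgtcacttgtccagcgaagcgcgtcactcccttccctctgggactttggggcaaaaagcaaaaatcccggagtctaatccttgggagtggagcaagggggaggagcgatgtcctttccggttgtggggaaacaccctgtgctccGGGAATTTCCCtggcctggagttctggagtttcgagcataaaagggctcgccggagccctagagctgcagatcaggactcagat

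Of the 10 genes, 9 had a promoter in the RefSeq table, and Ccl2 had none there. The NF-kB consensus was matched in 6 of these 9, namely Vcam1, Madcam1, Cxcl1, Cxcl10, Cxcl11 and Ccl20, against 3.54% of all 33469 promoters of this length. GGAANTTCC was matched in 4 (Icam1, Cxcl1, Cxcl10 and Cxcl11), against 0.669% of promoters. Cxcl10 and Cxcl11 held the same 10 letters, GGGAAATTCC, beginning 187 and 74 bases before their starts. In Madcam1 the 2 matches lay 118 and 106 bases before the start. Cxcl16 and Cx3cl1 held neither motif in this window. The interferon-stimulated response element, searched as GAAA, any 2 bases and GAAA, was matched in Cxcl10 and Vcam1 (3.41% of promoters). The AP-1 motif TGANTCA was matched in Cxcl10 and Cxcl11 (6.34%), and the NRF2 motif TGACNNNGC in Cxcl10 (10.1%), where it overlaps the AP-1 match. TATAAA was matched in 5 (12.9%). Both strands were searched, and a match is a string of letters, not a measured binding site. The motifs were named after values or sequences were seen, so the shares of all promoters give scale only and are no test of enrichment.

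The mRNA libraries had totals of 51009800 to 55869159 normalized counts, and 1 read was worth about 0.811 to 1.20 normalized counts. The labels also name liver as the tissue. Ins1 lay between 1238010 and 2086080 normalized counts. Among hepatocyte markers, Alb was at most 2.01, Tat at most 12.9 and Apoa1 at most 19.4, and Cyp2e1 was listed at 0. Others were higher, with Hnf4a at 3748 to 4997, Ass1 at 920 to 1390 and Fgb at 211 to 702. Serpina1 lay at 155 to 528 and Apob at 44.0 to 146. Hmox1, the heme-degrading enzyme known to be induced by arsenic, lay between 12135 and 16234 in the libraries labelled untreated. In those labelled iAs it lay between 1175 and 2337, a log2 difference of -3.06 (SE 0.17, n = 4 and 5, limma adjusted p = 8.53e-07). This runs against what the labels would lead one to look for, so each direction below is that of the libraries as labelled. The libraries labelled untreated all came from lane 3 and those labelled iAs from lane 4. Lane and label therefore cannot be told apart. Of 14410 genes tested with limma on log2(normalized count + 1), 30% were called at an adjusted p under 0.05, 14.9% as lower and 15.1% as higher in the libraries labelled iAs.

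Icam1, Cxcl10, Cxcl1, Madcam1 and Cxcl11 were each several-fold lower in the libraries labelled iAs, and Cxcl16 and Cx3cl1 had smaller differences, with groups that overlapped. Of the 10 genes 7 reached the mean of 10 normalized counts that the test required. Cxcl1 reached it only through the libraries labelled untreated. Among these 7, 5 were past the threshold as lower and 0 as higher, beside the 30% of all genes above, and in 5 the groups did not overlap, beside 25.9%. Nothing is read from these counts, since the genes were chosen on this contrast. Ccl2, Ccl20 and Vcam1 were below that limit.

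**Figure D1:**
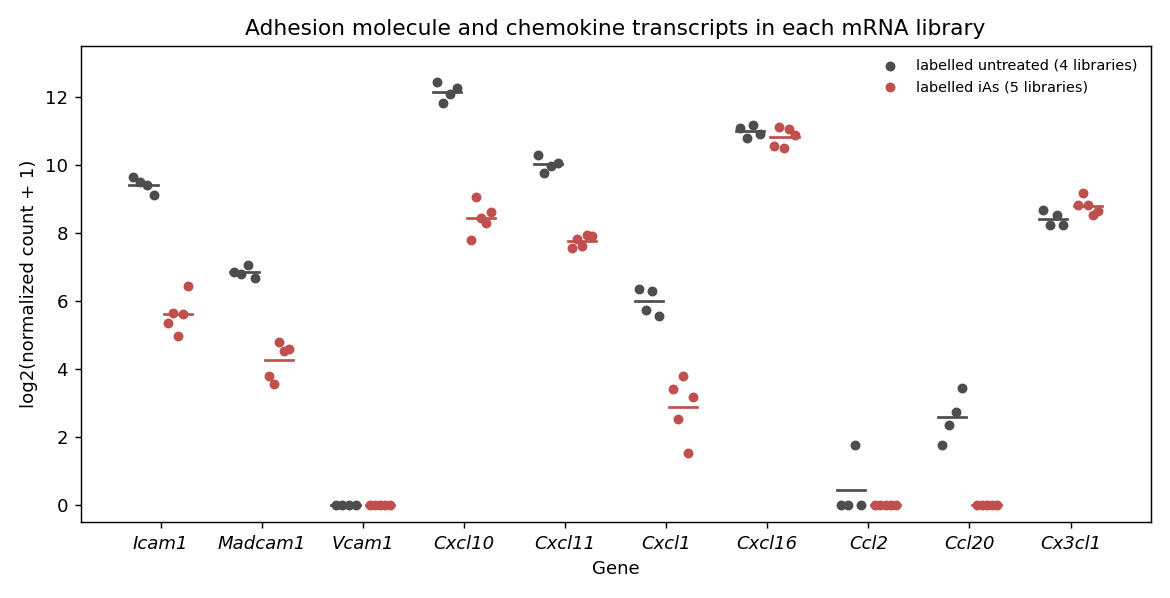
Each point is 1 mRNA library, with log2(normalized count + 1) on the vertical axis and the 10 genes on the horizontal axis, and each bar is a group mean on that scale. The 2 groups are apart for Icam1, Madcam1, Cxcl10, Cxcl11, Cxcl1 and Ccl20, and they overlap for Cxcl16 and Cx3cl1.

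Icam1 (ENSRNOG00000020679) encodes the ligand of the leukocyte integrins LFA-1 and Mac-1. In the libraries labelled untreated, numbered 1 to 4, it had 803, 718, 687 and 558 normalized counts. In those labelled iAs, numbered 1 to 5, it had 39.9, 49.2, 30.7, 47.9 and 85.4. The lowest untreated library was 6.53 times the highest iAs library. The means were 691 ± 102 (SD, n = 4) and 50.6 ± 20.8 (SD, n = 5), a log2 difference of -3.82 (SE 0.25) on the log2(value + 1) scale.

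Madcam1 (ENSRNOG00000008217) encodes the mucosal addressin, the ligand of integrin alpha4 beta7, and is best known from the vessels of the gut. Its values were 114, 110.2, 131 and 102 normalized counts in the libraries labelled untreated. Values in those labelled iAs were 12.9, 10.8, 27.0, 22.0 and 23.1, all below the untreated range. The log2 difference was -2.59 (SE 0.29).

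Vcam1 (ENSRNOG00000014333), the ligand of integrin alpha4 beta1, was listed at 0 in all 9 libraries. Map3k7, a kinase of NF-kB signalling that most cells express, was also listed at 0 in all 9, so an entry of 0 in this table need not mean that a gene is silent.

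Cxcl10 and Cxcl11 encode ligands of CXCR3, the receptor of activated T cells, and both are known as interferon-inducible. Cxcl10 (ENSRNOG00000022256) had 5499, 3633, 4349.6 and 4947 normalized counts in the libraries labelled untreated. It had 223, 537, 349.8, 310.1 and 389 in those labelled iAs. Even the highest iAs library was thus far below the lowest untreated one, which was 6.77 times as high. The log2 difference was -3.71 (SE 0.21), which differed from that of Icam1 by less than either SE.

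Cxcl11 (ENSRNOG00000022298) had 1245, 869, 997 and 1068 normalized counts in the libraries labelled untreated. Its values in those labelled iAs were 189, 228, 196, 247 and 241. These 5 libraries lay close together, with an SD of 11.9% of their mean, against 32.0% for Cxcl10 and 41.1% for Icam1. The log2 difference was -2.24 (SE 0.12), and the mean of the libraries labelled untreated was 4.75 times that of those labelled iAs, against 12.7 times for Cxcl10. Cxcl9, the further CXCR3 ligand of the same gene cluster, was at most 4.18 normalized counts in any library.

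Cxcl1 (ENSRNOG00000002802), a neutrophil attractant that signals through CXCR2, was low in all libraries. It had 81.5, 52.5, 77.7 and 45.8 normalized counts in the libraries labelled untreated and 9.68, 4.78, 12.9, 1.91 and 8.01 in those labelled iAs. The lowest of these is worth about 2 reads. The groups did not overlap, and the log2 difference was -3.10 (SE 0.47), with the largest error of the 7.

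The 2 transmembrane chemokines, which are made as membrane-tethered proteins and shed by proteases, showed smaller differences. Cxcl16 (ENSRNOG00000026647), the ligand of CXCR6, had 2189, 1789.7, 2308 and 1913 normalized counts in the libraries labelled untreated and 1503, 2213, 1461, 2138 and 1900.4 in those labelled iAs. The groups overlapped, and the log2 difference was -0.17 (SE 0.13). Cx3cl1 (ENSRNOG00000016326), the ligand of CX3CR1, had 405, 299.8, 371 and 302 against 455, 583, 455, 369.5 and 399.8. All but 1 of the libraries labelled iAs lay above 3 of the 4 labelled untreated, and the log2 difference was 0.39 (SE 0.14).

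Both CC chemokines were close to the limit of detection. Ccl20 (ENSRNOG00000015992), the ligand of CCR6, had 2.43, 4.16, 5.68 and 9.88 normalized counts in the libraries labelled untreated and was listed at 0 in the 5 labelled iAs. Ccl2 (ENSRNOG00000007159), a monocyte attractant, had 2.44 in untreated library 3 and was listed at 0 in the other 8. A count of 3 reads was worth 2.43 to 3.59 normalized counts, so Ccl2 and the lowest value of Ccl20 were at about that level.

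The library with the highest value was not the same for each gene. Untreated library 1 was highest of its group for Icam1, Cxcl1, Cxcl10, Cxcl11 and Cx3cl1, and untreated library 3 for Madcam1 and Cxcl16. Among the libraries labelled iAs, library 5 was highest for Icam1, library 2 for Cxcl10, Cxcl16 and Cx3cl1, library 3 for Madcam1 and Cxcl1, and library 4 for Cxcl11.

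The library codes have 3 endings, and each ending holds libraries of both groups. The labels do not say what the ending stands for. Within ending 52 (untreated libraries 1 and 3, iAs libraries 1, 4 and 5) the difference of mean log2(value + 1) was -3.74 for Icam1, -2.64 for Madcam1, -4.02 for Cxcl10, -2.31 for Cxcl11 and -3.62 for Cxcl1. Between untreated library 2 and iAs library 3, which share an ending, the same genes differed by -4.51, -1.99, -3.37, -2.14 and -1.95. Between untreated library 4 and iAs library 2, the last ending, they differed by -3.48, -3.13, -3.20, -2.23 and -3.02. The groups do not overlap for these 5 genes, so their direction within each ending was fixed, and only the sizes are described. Cx3cl1 differed by 0.07, 0.60 and 0.95 in the same order, so its difference was near 0 in the ending with most libraries. Cxcl16 differed by -0.30, -0.29 and 0.21.

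**Figure D2:**
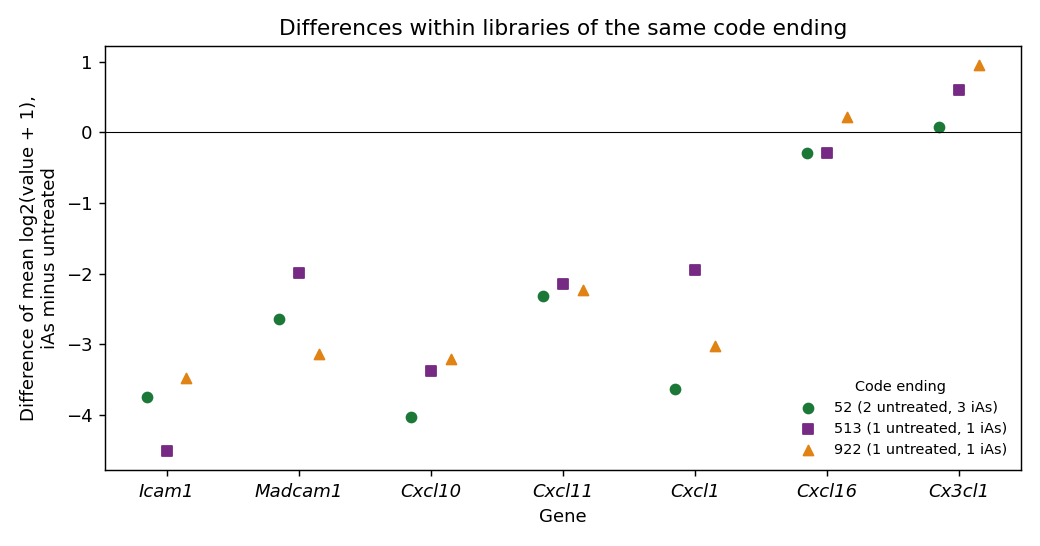
The difference of mean log2(value + 1), iAs minus untreated, is plotted for 7 genes within each library code ending, with 1 marker per ending. Icam1, Madcam1, Cxcl10, Cxcl11 and Cxcl1 lie below -1.9 for every ending, while Cxcl16 and Cx3cl1 lie between -0.30 and 0.95.

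Some markers of other cell types were listed at 0, which need not mean that a gene is silent, and others had counts. In bulk RNA, fewer cells of a type and less RNA per cell cannot be told apart. Of 10 leukocyte markers 8 had a row, Ptprc was listed at 0 in all 9 libraries, and their summed level was 29.7 to 55.2 normalized counts in the libraries labelled untreated and 39.4 to 92.1 in those labelled iAs. Only Cd68 of these was tested, with means of 23.3 (untreated) and 44.1 (iAs). It was called higher, just under the threshold (limma adjusted p = 0.05 after rounding). Of 10 endothelial markers 9 had a row, Emcn and Cldn5 were listed at 0, and Cdh5 was at most 8.68. Their summed level was 1018 to 1193 in the libraries labelled untreated and 1225 to 1412 in those labelled iAs, with 1 of 4 tested called higher and 0 lower. Most of that sum was Egfl7, at 732 to 1025, with Plvap at 107 to 229, Kdr at 38.9 to 173 and Vwf at 44.9 to 86.4. Fibroblast markers summed to 9552 to 13116 against 6034 to 8859, nearly all of it Thy1, with Dcn, Lum and Pdgfrb listed at 0. Of 4 tested, 1 was called higher (Postn) and 2 lower (Thy1 and Col1a1). Col1a1, with means of 19.5 (untreated) and 5.33 (iAs), reached the mean of 10 only through the libraries labelled untreated. Hepatocyte markers summed to 6238 to 6941 against 5411 to 6801, with 3 of 6 tested called lower, and beta cell markers to 1818160 to 2318240 against 1444900 to 1979950, with 1 of 9 called higher and 1 lower. Over all tested genes 14.9% were called lower and 15.1% higher, and each marker list holds few tested genes. The part of the fibroblast and hepatocyte markers in the differences of the 10 genes was not tested.

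Most of the genes next to these 10 on the chromosome were not called. Up to 3 protein-coding genes on each side were taken in the order of RefSeq's GRCr8 assembly, a rule set after the values were seen. Of 33 such neighbours tested 3 were called higher and 2 lower, with a median log2 difference of 0.05, against 30% called among all genes. Icam1 on chromosome 8 lies beside its relatives Icam4 and Icam5. Icam5, an adhesion molecule known from neurons, had 408 ± 122 (SD, n = 4) and 287 ± 80.3 (SD, n = 5) normalized counts, a log2 difference of -0.51 (limma adjusted p = 0.124). It was called (-0.44, adjusted p = 0.0306) with the code ending as a block. Icam4 differed by -0.81 with an SE of 0.82, and it reached the mean of 10 only through the libraries labelled untreated. Mrpl4, on the other side of Icam1, differed by -0.07. Cxcl10 and Cxcl11 are themselves direct neighbours on chromosome 14. On their outer sides, Art3 differed by 0.03 and Sdad1 by -0.03. The neighbours called higher were Shc2 (0.43, adjusted p = 0.0011) near Madcam1, Sphkap (0.32, adjusted p = 0.00239) near Ccl20 and Dph5 (0.28, adjusted p = 0.0375) near Vcam1. Those called lower were Pllp (-0.42, adjusted p = 0.00169) near Cx3cl1 and Scarb2 (-0.18, adjusted p = 0.0471) near Cxcl11. Scarb2 was no longer called when any library other than untreated library 2 or iAs library 5 was left out, and Dph5 without untreated libraries 1 or 3 or iAs libraries 2, 3, 4 or 5 (adjusted p between 0.0519 and 0.136).

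**Figure D3:**
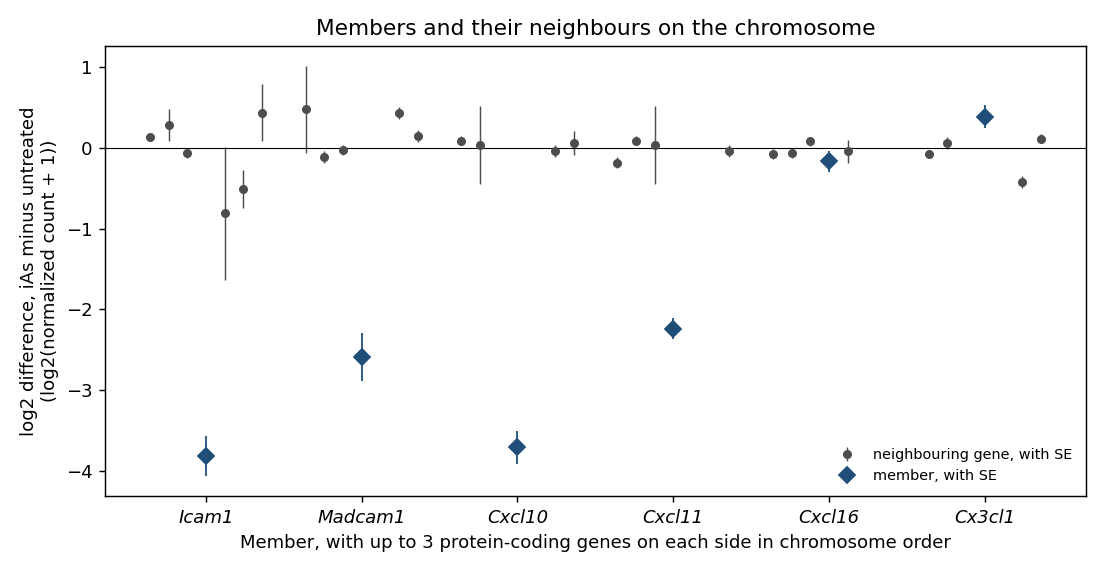
Diamonds show the log2 difference with its SE for 6 genes, and round points show tested neighbours in their order on the chromosome, with the 10 genes themselves left out as neighbours. Neighbours lie between -0.81 and 0.48, whereas Icam1, Madcam1, Cxcl10 and Cxcl11 lie between -3.82 and -2.24.

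Other genes of recruitment were taken from lists by role, which were chosen with earlier results of these data known. The shares and p-values of these lists may therefore not be independent of those results. Of 29 further chemokine genes only Ccl27 (log2 difference 0.16) and Cxcl12 (0.01) were abundant enough to test. Neither was called by limma, 0 of 2 also at an unadjusted p under 0.05, and 17 of the others were listed at 0 throughout. Without the filter on low values, 1 gene of this list that was too low for the main test was called lower. Cxcl3, a relative of Cxcl1, had 5.94 to 22.7 normalized counts in the libraries labelled untreated and 0 to 6.996 in those labelled iAs. Chemokine receptors were few. Of 22, 4 were tested (Cxcr4, Cxcr5, Ackr3 and Ackr4) and 0 were called by limma, against 30% of all genes, with 1 at an unadjusted p under 0.05. The receptors named above beside their ligands, Cxcr2, Cxcr3, Cxcr6, Ccr6 and Cx3cr1, were at most 2.44 normalized counts in any library. Not all receptors were that low: Ackr3 had 518 ± 98.6 (SD, n = 4) and 462 ± 25.8 (SD, n = 5). Ccr2 and Ackr1 had no row.

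Among 21 tested adhesion molecules other than the 3 above, 5 were called lower and 1 higher, 28.6% against 30% of all genes, with a median log2 difference of -0.04. Bcam, a laminin receptor, had 20552 ± 2782 normalized counts (SD, n = 4) and fell to 11525 ± 1510 (SD, n = 5) (log2 difference -0.83, SE 0.10, limma adjusted p = 1.44e-04). Cd99, a protein of leukocyte transmigration, fell by 0.51 in log2 and the junction protein gene Jam3 by 0.46, and the neural adhesion molecule gene L1cam rose by 0.50. Its call was lost within code ending 52 alone (log2 difference 0.32, adjusted p = 0.153). Nectin2 (-0.14, adjusted p = 0.0424) was called as lower but kept that call only when untreated library 4 or iAs library 4 was the one left out (otherwise adjusted p between 0.0659 and 0.112). The list had 3 lower calls without untreated library 1, untreated library 3 or iAs library 2. Cdh1 and Epcam, epithelial adhesion genes of beta cells, differed by 0.11 and 0.06 and were not called. Cdh1, Epcam and Icam2 were named after their values were seen. Icam2 had 32.6 ± 6.97 (SD, n = 4) and 15.5 ± 7.75 (SD, n = 5) normalized counts, a log2 difference of -1.15 (SE 0.41, adjusted p = 0.0528).

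Of 6 tested integrins, the counter-receptors of the adhesion molecules, 1 was called higher and 1 lower, 33.3% against 30% of all genes. Itga4, the alpha4 chain that binds VCAM1 and MADCAM1, had 183 ± 8.58 normalized counts (SD, n = 4) and fell to 98.0 ± 20.9 (SD, n = 5) (log2 difference -0.91, adjusted p = 0.00172). Itgb1, its most common partner chain, rose by 0.34 in log2 (adjusted p = 8.72e-04). Without iAs library 3 there were 2 rises. Among the proteases and regulators that shed membrane-bound chemokines, 1 of 4 tested was called, 25% against 30% of all genes. This was Rhbdf2, a partner of ADAM17, at -0.38 (adjusted p = 0.0198). It lost its call without untreated library 2 (adjusted p = 0.0528), within code ending 52 alone (adjusted p = 0.15) and with the replicate number as a block (adjusted p = 0.0557). Adam10 and Adam17 differed by -0.03 and 0.16.

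The cytokines that commonly induce these genes were not abundant enough to test. Of 9, 6 were listed at 0 in all 9 libraries, including Tnf, Ifng and Il6, and Il1b was at most 1.05 normalized counts. Ltb reached 19.5 in 1 untreated library and was listed at 0 in those labelled iAs. Their receptors were present, and of 12 tested 5 were called lower and 2 higher (58.3% against 30% of all genes, median log2 difference -0.22). Tnfrsf1a, the main receptor of tumour necrosis factor, had 5025 ± 314 normalized counts (SD, n = 4) and fell to 3599 ± 383 (SD, n = 5) (log2 difference -0.49, adjusted p = 7.17e-04). The interferon gamma receptor gene Ifngr2 fell by 0.30 in log2. Il1rap (-0.36) and Ltbr (-0.23) were also called as lower. Cd40, a receptor of the same family as Tnfrsf1a, rose from 22.8 ± 5.49 to 80.6 ± 34.1 (log2 difference 1.72, SE 0.31, adjusted p = 0.00146), and the interleukin-1 receptor gene Il1r1 rose by 0.37. Lower calls in this list numbered 2 without untreated library 1 or iAs libraries 1 or 3, and 3 without untreated libraries 3 or 4. Il1rap lost its call without untreated libraries 1 or 2 or iAs libraries 1, 3 or 5, and Ltbr without untreated libraries 1, 3 or 4 or iAs libraries 1 or 3 (adjusted p between 0.0538 and 0.0749).

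Genes of NF-kB signalling were lower in 12 of 24 tested and higher in 1, 54.2% against 30% of all genes, with a median log2 difference of -0.27 against -0.00 over all genes. Nfkb2, the precursor of the p52 subunit, had 5095 ± 621 normalized counts (SD, n = 4) and fell to 1898 ± 417 (SD, n = 5) (log2 difference -1.44, SE 0.14, adjusted p = 2.79e-05). The inhibitor gene Nfkbie fell by 0.96, the feedback regulator gene Tnip1 by 0.53 and the subunit gene Rela by 0.32. The kinase adaptor gene Tab1 was the 1 called higher (0.26, adjusted p = 0.0167). It lost its call without untreated library 3 (adjusted p = 0.0577) and after rescaling to equal totals (adjusted p = 0.0524), each leaving 0 higher calls in the list, and the list had 2 higher calls without untreated library 2. Of 12 tested genes of interferon signalling 6 were lower and 0 higher (50%, median -0.35). Stat2, a subunit of the factor that type I interferons activate, had 1677 ± 159.8 normalized counts (SD, n = 4) and fell to 893 ± 188 (SD, n = 5), a log2 difference of -0.93 (limma adjusted p = 5.32e-04). Irf9, its DNA-binding partner, fell by 0.63 and Irf1 by 0.46 in log2.

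The genes whose profile over the 9 mRNA libraries was nearest to that of a member were found by the root mean square difference of log2(value + 1), each gene centred on its mean. Genes without a symbol, or with a provisional, clone-based or microRNA symbol (such as LOC or RGD), were left out of this search. Nearest to Icam1 were Cxcl10 (0.44), Hmox1 (0.50), Qrich2 (0.79), Stap2 (0.80) and Madcam1 (0.80). Nearest to Cxcl10 were Icam1 (0.44), the lymphocyte activation marker gene Cd69 (0.51), Hmox1 (0.55), Neurl3 (0.71) and Rhd (0.72). Nearest to Madcam1 were Rhd (0.32), the interferon-inducible gene Oasl2 (0.37), Stap2 (0.38), Cxcl11 (0.43) and Tmem173 (0.46), which encodes the DNA-sensing adaptor STING. The measure is not scaled, so genes with differences of similar size lie near each other by construction. Cd69 and Rhd reached the mean of 10 only through the libraries labelled untreated. Their means, untreated and iAs, were 21.6 and 0.949 for Cd69 and 44.7 and 6.91 for Rhd.

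MicroRNAs reported to act on these genes or on NF-kB signalling were read in the separate small RNA libraries, which the choice of genes did not use. miR-146a is induced by NF-kB and represses Traf6 and Irak1, miR-221 and miR-222 share a seed and have been reported to repress Icam1, miR-126 represses Vcam1, and miR-17-3p has been reported to repress Icam1. Mature sequences are from RefSeq's GRCr8 table, with the seed (bases 2 to 8) in capitals.
rno-miR-146a-5p: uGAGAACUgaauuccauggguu
rno-miR-221-3p: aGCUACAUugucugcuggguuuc
rno-miR-222-3p: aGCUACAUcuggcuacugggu
rno-miR-126a-3p: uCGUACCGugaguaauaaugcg
rno-miR-17-1-3p: aCUGCAGUgaaggcacuugugg
rno-miR-17-2-3p: aCUGCACUgcaagcacuucuuac

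The 3p arms of mir-17-1 and mir-17-2 have different seeds, and the deposited rows matched here are of mir-17-2. The link to Icam1 reported for miR-17-3p may therefore not apply to these rows, which are still counted below. Of 9 matched rows 6 had a mean of at least 10 RPMMM (reads scaled to the total mapped to microRNAs) and entered the test. Of these 6, 2 were called for iAs, against 8.41% of 523 rows, and 0 each for Cd (10.5%) and Mn (7.46%) by limma, with 0 and 1 at an unadjusted p under 0.05.

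miR-146a-5p had 16.8, 13.34 and 15.01 RPMMM in untreated and 29.27, 29.98 and 27.52 in iAs libraries. The groups did not overlap, and the log2 difference was 0.90 (SE 0.12, n = 3 each, limma adjusted p = 3.13e-04). It was 17.5 ± 1.68 (SD, n = 3) with Cd and 13.3 ± 1.33 (SD, n = 3) with Mn, and was not called in either. miR-221-3p had 26.3, 27.7 and 24.4 RPMMM in untreated and 22.5, 18.9 and 18.7 in iAs libraries. Its log2 difference of -0.37 (SE 0.11) was just under the threshold (limma adjusted p = 0.05 after rounding). It lost its call in most alternatives that left out a library (adjusted p between 0.0594 and 0.176), and kept it without untreated library 3 or iAs library 1. miR-222-3p, with the same seed, was below the limit at 7.05 to 10.6 RPMMM in all 12 libraries.

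miR-126a-3p had 16.3, 17.6 and 17.4 RPMMM in untreated and 22.7, 23.8 and 21.9 in iAs libraries. The groups did not overlap, but the log2 difference of 0.40 (SE 0.12) was not called (adjusted p = 0.0587), except without Mn library 3 (adjusted p = 0.0206). The row of the same microRNA with an offset of +1 in its name was more abundant, at 30.3 ± 2.83 (SD, n = 3) in untreated and 34.0 ± 3.15 (SD, n = 3) in iAs libraries, and was not called (0.16, adjusted p = 0.274). Rows of mir-17-2-3p differed by -0.11 and, with an offset of -1, by 0.20 for iAs, and neither was called.

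**Figure D4:**
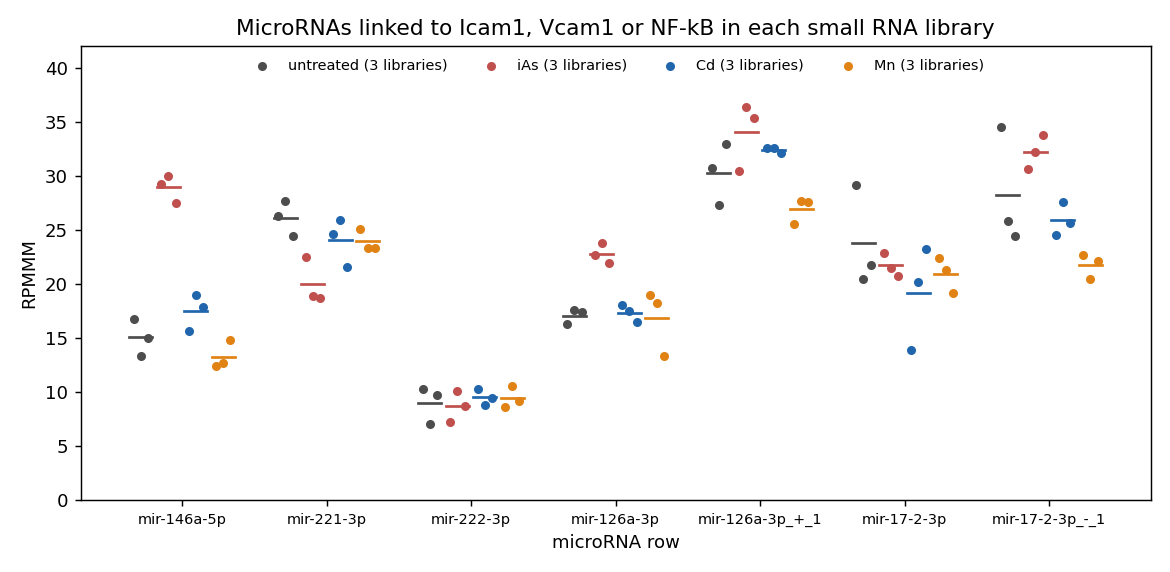
Points are RPMMM in single small RNA libraries and bars are means of 3, for 7 rows and 4 groups. Only for mir-146a-5p, mir-221-3p and mir-126a-3p do the iAs libraries lie apart from the untreated ones.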

How the data were processed

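Per the labels, the authors deposited the mRNA data as DESeq2-normalized counts, a signal per gene that is not whole. The small RNA table holds RPMMM, an RPM scaled to microRNA reads, per the labels and the deposited column sums. The submitters' processing notes name DESeq2, STAR, Salmon and the build rn6, with no roles. Each column was assigned through the code in a sample's description. In 4 mRNA libraries the title shows a different code, of the same group. Assigning by title would exchange untreated libraries 2 and 3, and iAs libraries 3 and 4, with no change of group.

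The comparisons used limma 3.58.1 (limma-trend, R 4.3.3) on log2(value + 1), for rows with a mean of at least 10, with Benjamini-Hochberg adjustment over all rows and a threshold of 0.05. The 12 small RNA libraries shared 1 fit. Of mRNA values under 20 reads, 68.7% to 84.5% per library lay within 0.05 of a whole read, too few to recover counts, so no count test was run.

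The 10 genes and all lists were chosen with earlier results of these data known. Named genes are the 10, the 4 called genes per list and direction with the smallest adjusted p, the listed microRNAs, the 5 nearest profiles of Icam1, Cxcl10 and Madcam1, and Hmox1 and Ins1; others, the neighbours and motifs among them, were named after values or sequences were seen. One gene that this rule names is not reported here. Motif letters were searched in the RefSeq promoters of GRCr8, another build than that of the files. Alternatives covered the pseudocount, low-value filter, scaling, leaving out each library, a replicate block and the code ending.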

Additional observations from a re-analysis of the deposited data

Results flagged for a closer look

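Among the 10 genes in both groups of mRNA libraries, 20 sets of values in all, 1 held a library far from the others. Ccl2 had 2.44 normalized counts in untreated library 3 and was listed at 0 in the other 3 untreated libraries, a value of about 3 reads. With the other 3 values tied at 0, any single value above 0 gives such a gap, so the gap itself says nothing of how unusual the value is.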

How the results depend on the processing

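The log2 differences of the 5 tested genes whose groups do not overlap moved by less than 1 SD between replicates in each of the 18 alternatives (17 for Cxcl1, which a mean of at least 50 removes). Icam1 ranged from -4.02 to -3.66, Cxcl10 from -4.02 to -3.55, Cxcl1 from -3.62 to -2.52, Madcam1 from -2.73 to -2.35 and Cxcl11 from -2.32 to -2.15 in log2. Cx3cl1 moved further only with code ending 52 alone, to 0.07. After rescaling to equal totals 41.4% of called genes were higher, against 50.5%.

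The fit with the replicate number as a block in effect drops iAs library 5, which has no untreated partner. In it 2761 genes were called in place of 4321 (3751 without that library and with no block), 25 in place of 35 listed genes, and 1 of the linked microRNA rows for iAs. Tab1 was not called in it (adjusted p = 0.0584). The numbers were not taken as pairing libraries. Deviations of same-numbered mRNA libraries correlated at 0.03, -0.04, 0.01 and -0.04, and none of these libraries correlated best with its own number. The mRNA numbers, and so this check and the mRNA block, rest on assigning columns by description. Same-numbered untreated and iAs small RNA libraries correlated at -0.55, -0.14 and 0.13. With the code ending as a block, 5278 mRNA genes and 40 listed genes were called. Deviations of untreated and iAs mRNA libraries correlated at -0.06 to 0.17 within an ending and at -0.14 to 0.08 between endings.

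The linked microRNA rows called for iAs numbered 1 with a pseudocount of 0.5, without a filter and with quantile normalization, and 1 to 2 when leaving out a library. For Mn they numbered 0 to 1, the 1 being the mir-17-2-3p form with an offset of -1 without untreated library 3 (adjusted p = 0.0333). At a value near 3 reads, as for Ccl2, a difference was not detectable at this depth.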
